A study of Mus musculus with 24 samples.

Results

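Transcript levels in the mediobasal hypothalamus of undisturbed mice were compared between ZT13 and ZT7, with 3 arrays at each time. ZT is zeitgeber time, the hours counted from lights on. The sample titles give the times as 13 and 7 with no unit, and they were read as ZT because the labels time the sleep restriction in ZT. For a nocturnal animal ZT7 lies in the middle of the rest phase and ZT13 near the onset of activity. The 6 arrays are the control (CON) arrays of these times, out of 24 in the series. The other arrays hold CON tissue at ZT1 and ZT19 and tissue at all 4 times from mice under timed sleep restriction (TSR). Gentle handling kept TSR mice awake between ZT0 and ZT6 for 5 days in a row, and after 2 days of free sleep this was repeated for another 5. All mice carry the background strain written C57BL76J in the labels, which give neither sex, age nor the day of sampling. The series names 3 mice per time point and condition, so that each array is taken as 1 mouse. The p-values rest on the variation among these arrays, which may in part be technical.

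The mediobasal hypothalamus holds the arcuate nucleus and its neighbours, which control appetite, energy use and pituitary hormones. Its cells, like most cells of the body, run a molecular clock in which CLOCK and ARNTL (BMAL1) switch on Per and Cry genes through E-box elements, and PER and CRY proteins then shut this drive down. The nuclear receptors of the Nr1d and Ror families form a second loop around Arntl, and factors such as DBP and TEF pass the rhythm on to other genes. Glucocorticoid hormone, which in nocturnal animals is highest around the start of activity, and the activity of neurons add further daily signals.

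All values are log2 signals of Affymetrix gene arrays, so that a difference of 1 is a doubling, and levels are not compared between genes. Of 19946 genes with a probe set of 1 symbol, the 11968 with a mean above 5.75 log2 units were tested, each with 1 probe set. The 6 arrays had interquartile ranges of 3.07 to 3.24 log2 units at ZT13 and 2.96 to 3.22 at ZT7. Spearman correlations across genes were 0.985 to 0.994 within ZT13, 0.975 to 0.987 within ZT7 and 0.964 to 0.982 between the times. The labelled tissue was checked against markers of the hypothalamus, not all of which passed the filter. The paraventricular and supraoptic genes Oxt and Avp, Trh of the tuberal and paraventricular nuclei, and the arcuate genes Tac2, Th and Npy were all above the filter. Of 14 arcuate and ventromedial genes with a probe set, 12 passed. Pomc, a defining arcuate gene, was under the filter, at 5.58 to 6.02 log2 units at ZT13 and 5.53 to 5.93 at ZT7. So was the ventromedial gene Nr5a1, at 5.47 to 5.84 at ZT13 and 5.56 to 6.08 at ZT7. The tanycyte genes Rax and Dio2, the leptin receptor gene Lepr and the peptide genes Crh, Hcrt and Pmch were under it too.

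Of the 11968 genes, 1904 (15.9%) differed between ZT13 and ZT7 at an adjusted p under 0.05 (limma, 20 arrays, Benjamini-Hochberg), 1251 higher at ZT13 (10.5%) and 653 lower (5.46%). Without adjustment, 3536 genes had a p under 0.05. Most differences were small, with a median size of 0.319 log2 units among the called genes. A difference of at least 0.5 was reached by 200 called genes (1.67%), 132 higher (1.10%) and 68 lower (0.568%), and 24 passed 1 log2 unit. The groups did not overlap in 26.8% of all genes (ZT13 higher in 17.3% and lower in 9.48%) and in 1741 of the 1904 called. The count depends on which arrays set the spread. With the 6 arrays alone it was 298 genes, and with all 24 arrays, including 4 with a narrow spread of values, 11 genes. It was 1239 without CON ZT13 replicate 2 and 1127 without CON ZT13 replicate 3. The share of higher calls, 65.7%, was 49.4% after a further quantile normalization, 51.6% with each array centred on its median and 45.8% without CON ZT7 replicate 3, so the balance of rises and falls is not settled by these arrays. The median difference over all genes was 0.027 log2 units.

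Several of the largest rises were genes known from forebrain neurons. Meis2 (probe set 10486041, chromosome 2), a homeobox factor of the striatum and other forebrain regions, had 8.57, 8.62 and 8.69 log2 units at ZT13, against 6.77, 6.69 and 6.37 at ZT7. That is 4.04-fold higher at ZT13 (difference 2.01 ± 0.09, SE, adjusted p = 1.93e-11), with no overlap. Ppp1r1b, which encodes the dopamine-regulated phosphatase inhibitor DARPP-32, had 7.99, 7.77 and 7.85 at ZT13, against 6.46, 6.18 and 6.71 at ZT7 (difference 1.42 ± 0.11, adjusted p = 7.76e-08). Ddn, a postsynaptic protein of dendrites, rose by 1.83 ± 0.12 (adjusted p = 2.15e-09), and Scn4b, a beta subunit of sodium channels, by 1.83 ± 0.14 (adjusted p = 3.70e-08). The Scn4b mean at ZT7 lay under the filter threshold, so its difference compares a measured level with one near background.

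Further down the 20 largest rises came Ptk2b, a calcium-sensitive tyrosine kinase, at 1.48, and Gng7, a G protein subunit of striatal neurons, at 1.13. The phosphoprotein gene Arpp21 rose by 1.10, the kinase anchor Akap5 by 1.05 and the dendritic scaffold Baiap2 by 1.04. Crym, a thyroid hormone-binding protein that also marks tanycytes, rose by 1.04, with 7.0, 6.77 and 6.87 at ZT13, against more widely spread values of 5.58, 5.47 and 6.45 at ZT7. Of the 9 tested tanycyte and ependymal genes, Crym was the 1 that rose and 1 fell, where 15.9% of all genes were called. The others of the 20 were the non-coding RNAs Vaultrc5 (1.91) and Snord14e (1.09), and Sgk1, Zbtb16, Ano3, Cpne5, Dnajb1, Egr1, Rasd1 and Adamts3, with differences from 0.98 to 1.33. All 20 were also called with the 6 arrays alone and without any 1 of the 6 arrays, and 7 of the 20 with all 24 arrays.

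**Figure D1:**
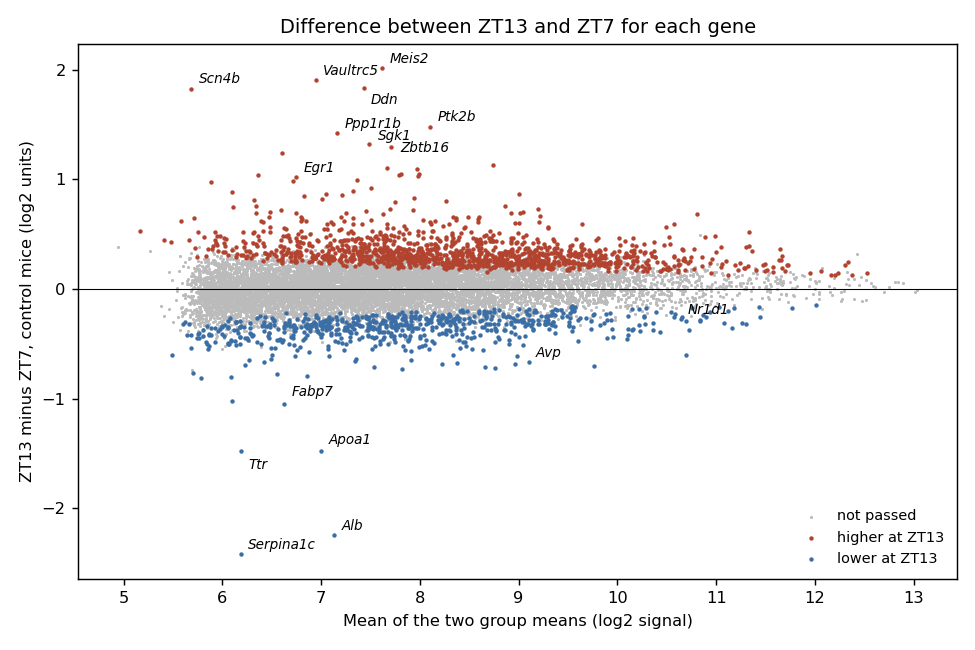
Difference between ZT13 and ZT7 in control mice (log2 units, y axis) against the mean of the ZT13 and ZT7 group means (log2 signal, x axis), with 1 point for each of the 11968 tested genes. Red points are the 1251 genes called higher at ZT13, blue points the 653 called lower, and grey points did not pass. Meis2 at 2.01 and Serpina1c at -2.42, whose ZT13 mean is under the filter threshold, are the extremes, and most called genes lie within 0.5 of 0.

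Genes that mark the striatum and forebrain cholinergic neurons moved together in these arrays. Of 13 tested members 8 rose and 0 fell, where 10.5% of all genes rose, and the median difference was 0.52, against 0.027 over all genes. The dopamine receptor gene Drd1 had 7.54, 7.35 and 7.38 log2 units at ZT13, against 6.65, 6.36 and 6.79 at ZT7. Drd2, another dopamine receptor gene, had 7.63, 7.58 and 7.71 at ZT13, against 6.70, 6.82 and 6.83 at ZT7. Neither gene overlapped, and the differences were 0.82 ± 0.11 for Drd1 (adjusted p = 3.94e-05) and 0.86 ± 0.10 for Drd2 (adjusted p = 9.83e-06). The cholinergic forebrain factor Lhx8 rose by 0.76, the striatal phosphodiesterase Pde10a by 0.53, the opioid precursor Penk by 0.52 and the choline transporter Slc5a7 by 0.42, the last from a ZT7 mean under the filter threshold. Slc5a7 lost its call in 3 of the 6 omissions of 1 array. Rgs9, the member with the highest mean not called, differed by 0.23 ± 0.11 (adjusted p = 0.162). With the 6 arrays alone 7 members rose, with all 24 arrays 2, and leaving out each of the 6 arrays in turn gave 7 to 10.

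The mean level of these 13 genes separated the times without overlap, at 7.56 to 7.60 log2 units in the ZT13 arrays and 6.86 to 6.95 in the ZT7 arrays. This mean is over the genes just counted, so it is a description and no separate evidence. Across the 4 times the control arrays were at 7.68 to 7.76 at ZT1, 6.86 to 6.95 at ZT7, 7.56 to 7.60 at ZT13 and 6.82 in the single ZT19 array of typical spread. TSR arrays were high at both times, at 7.80 to 7.91 at ZT13 and 8.14 to 8.19 at ZT7. The marker level in CON was thus higher at ZT1 and ZT13 than at ZT7. In bulk tissue, fewer cells of a type, a different extent of the dissected piece and less RNA per cell cannot be told apart. The part of the marker level in the other rises was not tested.

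Plasma protein genes were the largest falls. Alb (probe set 10523062, chromosome 5), serum albumin, had 5.94, 6.14 and 5.94 log2 units at ZT13, against 8.09, 8.53 and 8.15 at ZT7 (difference -2.25 ± 0.13, adjusted p = 1.36e-09). Ttr, transthyretin, the thyroid hormone carrier made by liver and choroid plexus, had 5.62, 5.25 and 5.48 at ZT13, against 6.88, 7.01 and 6.89 at ZT7 (difference -1.48 ± 0.13, adjusted p = 4.19e-07). Neither gene overlapped. The ZT13 means of Ttr, Serpina1c and Cyp2e1 lay under the filter threshold, so their differences compare a measured ZT7 level with one near background, and they passed the filter through the other groups. Apoa1, the main protein of high-density lipoprotein, fell by 1.48, the protease inhibitor Serpina1c by 2.42, the retinol carrier Rbp4 by 0.78 and the liver cytochrome Cyp2e1 by 0.81.

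Of the 5 tested genes of the choroid plexus and plasma list 4 fell and 0 rose, where 5.46% of all genes fell, with a median of -1.48, and all 4 were called with the 6 arrays alone and without any 1 of the 6 arrays. The fifth, the chloride channel gene Clic6, differed by 0.22 ± 0.10 (adjusted p = 0.153). The choroid markers Folr1, Kl, Aqp1, Otx2 and Kcne2 were all under the filter. Of the 10 listed genes 5 were thus tested, and of these Ttr and Serpina1c passed through groups other than CON ZT13. The count of falls, the median and the mean level of this list therefore depend in part on the filter. Folr1 had 4.95 to 5.25 log2 units at ZT13 and 4.92 to 5.33 at ZT7, which overlap. The mean of the 5 tested genes was 5.86 to 5.99 in the ZT13 arrays and 7.30 to 7.63 in the ZT7 arrays. CON arrays of ZT1 were at 5.63 to 5.93, and the TSR arrays at 6.61 to 6.85 at ZT13 and 6.75 to 6.87 at ZT7. CON ZT7 thus stood above the other CON times as well as above ZT13, and why was not tested.

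**Figure D2:**
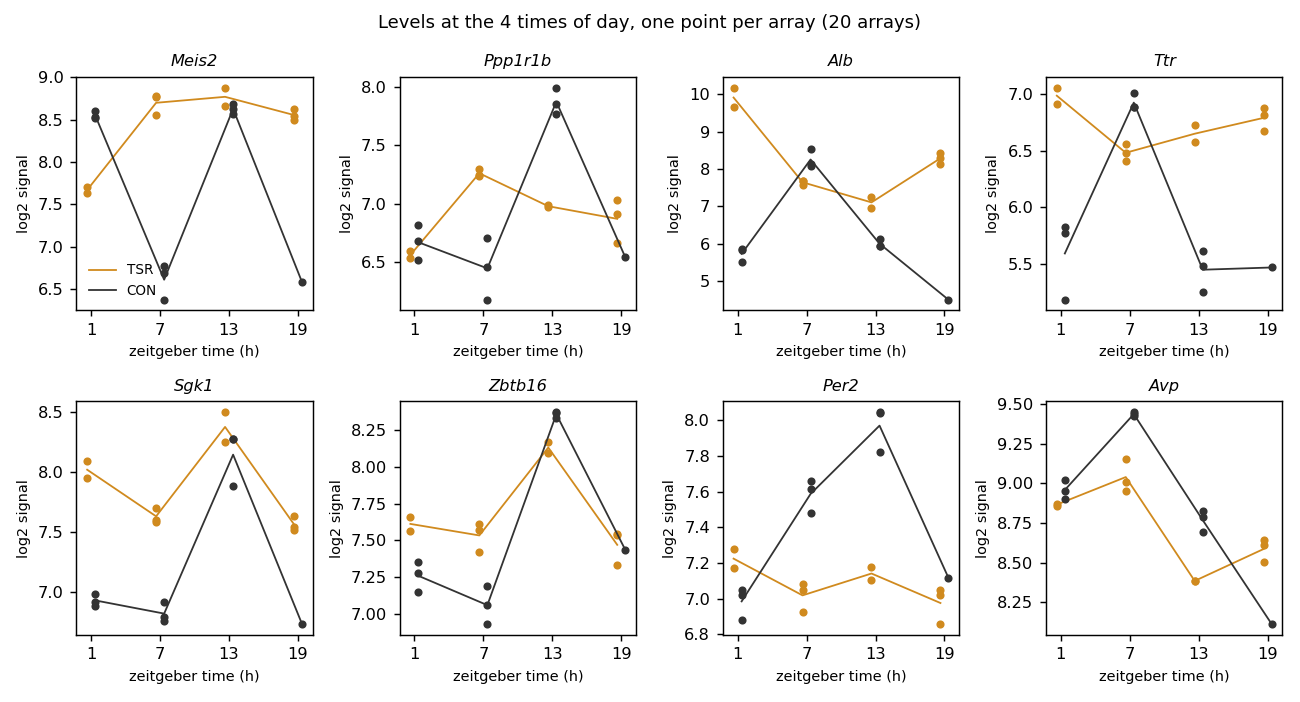
Level (log2 signal, y axis) of Meis2, Ppp1r1b, Alb, Ttr, Sgk1, Zbtb16, Per2 and Avp against zeitgeber time in hours (x axis), with 1 point for each of the 20 arrays of typical spread and lines through the group means. TSR is drawn in orange and CON in black, and CON ZT19 rests on 1 array. Meis2 in CON is near 8.6 at ZT1 and ZT13 and near 6.6 at ZT7 and ZT19, while Sgk1 and Zbtb16 in CON peak at ZT13.

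Core clock genes changed in both directions, with Per1, Per2 and Cry2 higher at ZT13 and Nr1d1, Rora, Rorb and Fbxl21 lower. Per2 (probe set 10356601, chromosome 1), a repressor of CLOCK and ARNTL, had 7.82, 8.04 and 8.05 log2 units at ZT13, against 7.48, 7.62 and 7.66 at ZT7 (difference 0.38 ± 0.08, adjusted p = 0.00414). Per1, its relative, had 8.56, 8.57 and 8.53 at ZT13, against 8.25, 8.36 and 8.07 at ZT7 (difference 0.32 ± 0.08, adjusted p = 0.0107). Nr1d1, which encodes the Arntl repressor REV-ERB alpha, had 10.51, 10.51 and 10.50 at ZT13, against 10.80, 10.75 and 10.79 at ZT7 (difference -0.27 ± 0.05, adjusted p = 0.00161). The groups of these 3 genes did not overlap.

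Of 16 tested core clock genes 3 rose, 4 fell and 9 did not pass, where 10.5% of all genes rose and 5.46% fell. The groups did not overlap in 10 of the 16, against 26.8% of all genes. The third rise was Cry2, a repressor, by 0.21. Among the falls, the Arntl activators Rorb and Rora fell by 0.48 and 0.27, and Fbxl21, which controls the stability of CRY proteins, fell by 0.40. Rorb is also a marker of thalamus and cortex. Of the others, Per3 differed by 0.17 (adjusted p = 0.0701), Ciart by 0.20 (adjusted p = 0.177), Arntl by 0.21 (adjusted p = 0.193), Clock by -0.20 (adjusted p = 0.110), Nr1d2 by -0.08 (adjusted p = 0.631) and Cry1 by -0.05 (adjusted p = 0.747). The kinase genes Csnk1d and Csnk1e and the ubiquitin ligase gene Btrc differed by 0.16, 0.12 and 0.04 and did not pass. With the 6 arrays alone, Nr1d1 and Rorb were called and the other 5 were not. Leaving out single arrays ended the calls of Cry2 (without CON ZT13 replicate 2 or 3 or CON ZT7 replicate 3), Rora (without CON ZT13 replicate 3 or CON ZT7 replicate 1) and Fbxl21 (without CON ZT13 replicate 1), with differences of 0.16 to 0.26, -0.32 to -0.21 and -0.48 to -0.28 over the 6 omissions.

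All clock output genes that passed were higher at ZT13. Of 12 tested members 6 rose and 0 fell, where 10.5% of all genes rose, with a median difference of 0.26. Usp2, a deubiquitinase that acts on PER and CRY proteins, had 8.23, 8.03 and 8.12 log2 units at ZT13, against 7.64, 7.66 and 7.34 at ZT7 (difference 0.58 ± 0.08, adjusted p = 7.63e-05). Tsc22d3, the glucocorticoid-induced leucine zipper, had 7.42, 7.43 and 7.61 at ZT13, against 6.75, 6.64 and 6.47 at ZT7 (difference 0.87 ± 0.10, adjusted p = 1.10e-05). These were the members also called with the 6 arrays alone. The cell cycle kinase Wee1 rose by 0.36, the hormone-responsive factor Klf9 by 0.32, the repressor Nfil3 by 0.32 and the PAR-domain factor Tef by 0.27. Nfil3 overlapped between the times, and its call was lost in 4 of the 6 omissions of 1 array. Klf9 was not called without CON ZT13 replicate 3, nor Tef without CON ZT7 replicate 1. Dbp, a strongly rhythmic partner of Tef in many tissues, differed by 0.16 ± 0.08 (adjusted p = 0.178), Hlf by -0.04 and Nampt by -0.11, and Bhlhe40 and Bhlhe41 by 0.24 and 0.26, none of which passed.

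**Figure D3:**
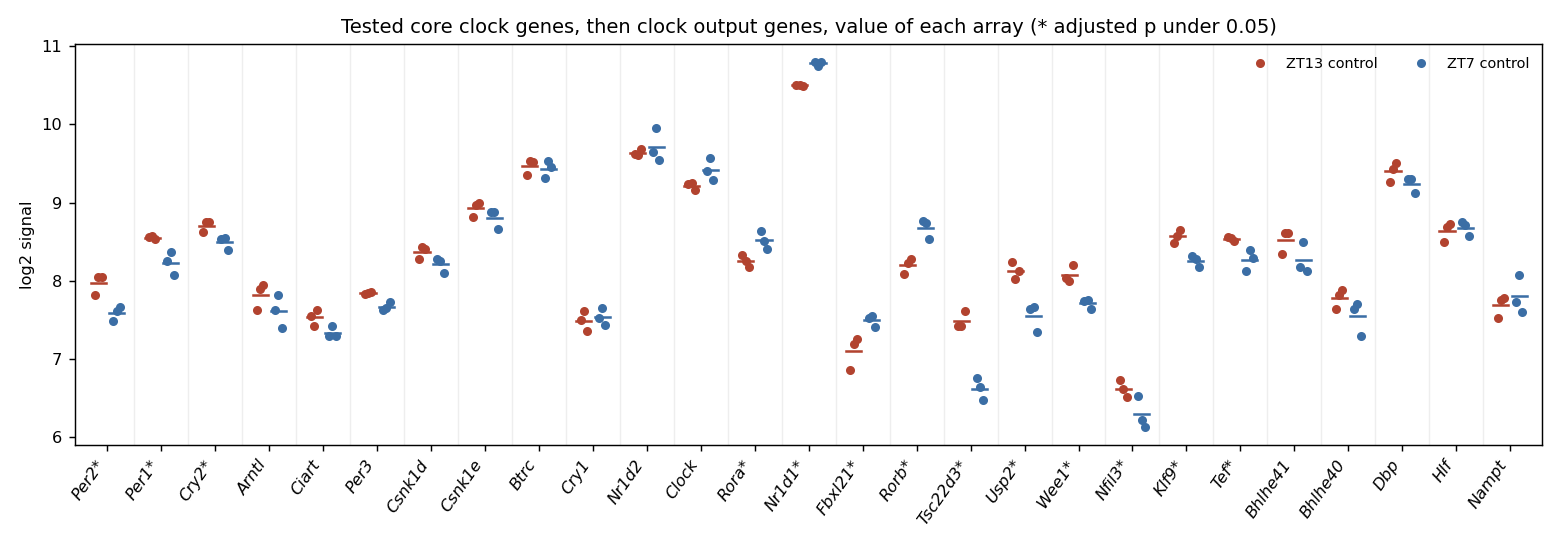
Level (log2 signal, y axis) of the tested core clock genes, from the largest rise to the largest fall, followed by the clock output genes not shown before (x axis). Each point is 1 array, with ZT13 in red to the left of ZT7 in blue, bars are group means, and an asterisk marks an adjusted p under 0.05. Per2, Per1 and Cry2 sit higher at ZT13, and Nr1d1, Rora, Fbxl21 and Rorb lower.

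Promoter letters of clock-linked genes are shown because the clock acts through the E-box CACGTG. Windows run from 250 bases before to 50 bases after the annotated start (RefSeq, GRCm38.p6), both strands were searched, and 7.15% of all 32851 windows hold this motif. It was found in at least 1 window of 3 of the 13 core clock genes with a window (Ciart, Cry1 and Per1) and of 3 of 10 clock output genes (Bhlhe41, Ciart and Tef). A gene can have several windows, so here and below a share of genes and a share of windows are unlike measures. The promoters printed here and below were picked after the matches were seen, because they hold one. Per1 has a match in 1 of 2 windows (chr11:69098699-69098998, plus strand), and Tef in both of its windows, of which 1 is shown (chr15:81802423-81802722, plus strand). The E-box is in capitals.
Per1: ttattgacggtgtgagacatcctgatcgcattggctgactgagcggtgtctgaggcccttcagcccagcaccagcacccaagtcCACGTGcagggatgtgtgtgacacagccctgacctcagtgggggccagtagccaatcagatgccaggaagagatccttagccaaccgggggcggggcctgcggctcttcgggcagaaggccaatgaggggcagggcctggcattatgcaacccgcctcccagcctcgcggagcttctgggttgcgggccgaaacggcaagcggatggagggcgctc
Tef: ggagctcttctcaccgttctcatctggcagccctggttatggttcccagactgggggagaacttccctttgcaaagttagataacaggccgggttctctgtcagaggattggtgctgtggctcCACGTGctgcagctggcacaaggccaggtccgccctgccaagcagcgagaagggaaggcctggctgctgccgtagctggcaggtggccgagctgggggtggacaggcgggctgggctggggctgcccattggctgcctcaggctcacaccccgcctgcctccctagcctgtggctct
The letters describe the windows only. Both genes rose, while Ciart and Cry1, which also hold the motif, did not pass.

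Glucocorticoid-responsive genes rose at ZT13. Of 13 tested members 9 rose and 0 fell, with a median difference of 0.32, against 10.5% of all genes called higher. Sgk1 (probe set 10362073, chromosome 10), a hormone-induced kinase that regulates ion transport, had 7.88, 8.28 and 8.27 log2 units at ZT13, against 6.78, 6.91 and 6.76 at ZT7. Zbtb16, a zinc finger factor induced by glucocorticoids, had 8.37, 8.33 and 8.37 at ZT13, against 7.19, 6.93 and 7.06 at ZT7. Neither gene overlapped, and the differences were 1.33 ± 0.10 for Sgk1 (adjusted p = 1.70e-08) and 1.3 ± 0.08 for Zbtb16 (adjusted p = 2.15e-09).

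Fkbp5, a chaperone that dampens the glucocorticoid receptor, had 7.35, 7.30 and 7.26 at ZT13, against 6.60, 6.87 and 6.78 at ZT7 (difference 0.55 ± 0.08, adjusted p = 0.000165). With Tsc22d3 these were the 4 members called with the 6 arrays alone. The lipid droplet protein Plin4 rose by 0.45 and the feedback inhibitor Errfi1 by 0.32, and both calls were lost when single arrays were left out, in 5 and 3 of 6 cases. Per1 and Klf9, already described, belong to this list too. The ninth rise was that of Nfkbia, an inhibitor of NF-kappa B, by 0.28, which falls outside the rule for named genes and was chosen after its values were seen. Nr3c1, the glucocorticoid receptor gene, had 7.67, 7.81 and 7.87 at ZT13, against 7.95, 8.0 and 7.68 at ZT7, which overlap (difference -0.09 ± 0.08, adjusted p = 0.504). Leaving out 1 array at a time left 6 to 9 members called higher.

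The palindromic glucocorticoid response element (AGAACA, then 3 bases of any kind, then TGTTCT), searched on both strands, was found in 3 of 32851 windows (0.00913%), and 1 of the 11 listed genes with a window, Sgk1, holds it. It lies in 1 of the 6 windows of Sgk1 (chr10:21993640-21993939, plus strand), 189 bases before the annotated start, and is in capitals. The window also holds an E-box, left in lower case.
Sgk1: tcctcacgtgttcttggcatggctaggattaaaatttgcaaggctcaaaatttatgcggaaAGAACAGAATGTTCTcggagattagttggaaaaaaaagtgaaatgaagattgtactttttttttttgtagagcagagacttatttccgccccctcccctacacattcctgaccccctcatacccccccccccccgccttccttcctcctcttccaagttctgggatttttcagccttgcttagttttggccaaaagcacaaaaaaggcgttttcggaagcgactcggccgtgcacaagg
Fkbp5, whose listed windows do not hold the element, rose as well, by 0.55, and so did Zbtb16, by 1.3.

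Immediate early genes, which neurons switch on after activity, rose where they passed. Of 16 tested members 7 rose and 0 fell, where 10.5% of all genes rose, with a median difference of 0.22. Egr1, a zinc finger factor of recently active neurons, had 7.37, 7.21 and 7.18 log2 units at ZT13, against 6.35, 6.06 and 6.30 at ZT7 (difference 1.02 ± 0.08, adjusted p = 7.76e-08). Nr4a1, an orphan nuclear receptor, had 8.31, 8.34 and 8.23 at ZT13, against 7.65, 7.53 and 7.53 at ZT7 (difference 0.72 ± 0.08, adjusted p = 4.22e-06). The groups of both genes were well apart. The synaptic gene Arc rose by 0.63, the activity-dependent factor Npas4 by 0.49 and Egr3 by 0.47, and these 5 were called with the 6 arrays alone.

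Nr4a2 rose by 0.31 and Homer1, a postsynaptic scaffold, by 0.22, and their calls were lost in 2 and 3 of the 6 omissions of 1 array. The phosphatase gene Dusp1 had 8.92, 8.86 and 8.93 at ZT13, against 8.83, 8.68 and 8.58 at ZT7, without overlap, and did not pass (difference 0.21 ± 0.07, adjusted p = 0.0507). Fos, the member most used to mark active neurons, named here although outside the rule, had 6.18, 5.98 and 6.22 at ZT13, against 5.76, 5.79 and 6.06 at ZT7, which overlap (adjusted p = 0.210). The cAMP response element TGACGTCA, in 1.79% of windows, was held by 2 of the 13 immediate early genes with a window, and 1 form of the serum response element, in 0.0639%, by 0. Egr1, Arc and Egr3 are also expressed in striatal neurons, whose markers moved in the same arrays, and the part of those markers in these rises was not tested.

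**Figure D4:**
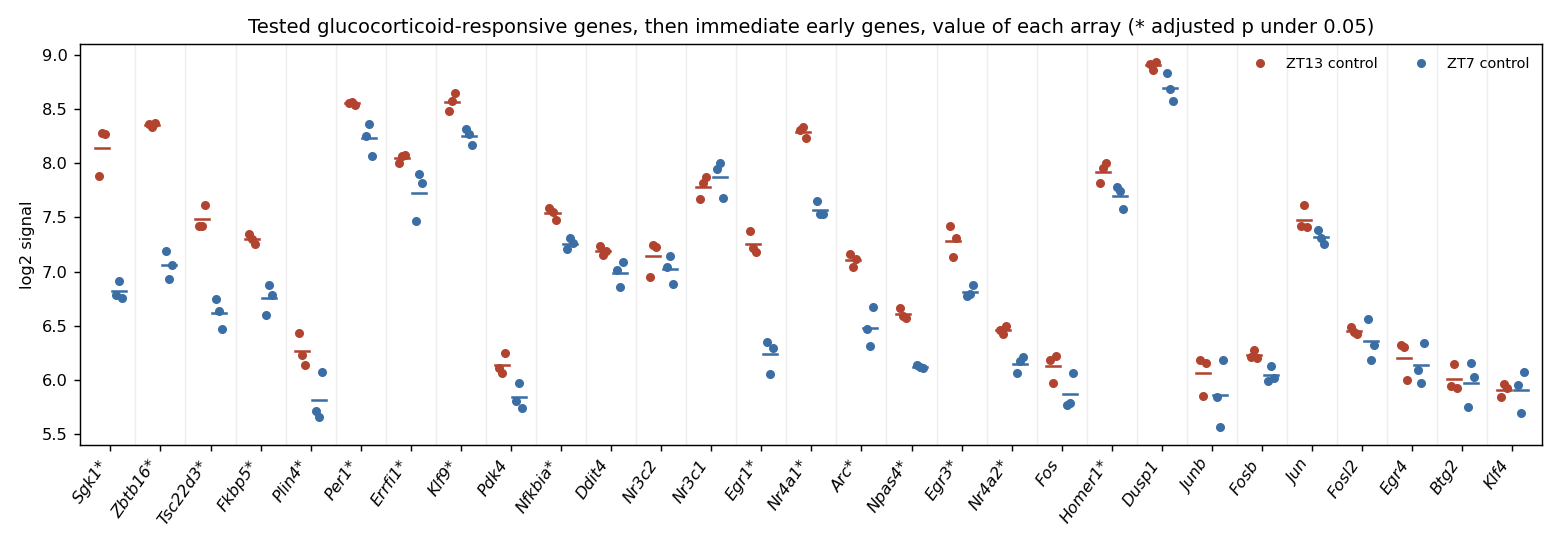
Level (log2 signal, y axis) of the 13 tested glucocorticoid-responsive genes and then of the 16 tested immediate early genes (x axis), each from the largest rise downward. Points are single arrays, with ZT13 in red to the left of ZT7 in blue, bars are group means, and an asterisk marks an adjusted p under 0.05. The mean differences of Sgk1, Zbtb16 and Egr1 exceed 1 log2 unit, followed by Tsc22d3 at 0.87 and Nr4a1 at 0.72.

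Genes that mark the suprachiasmatic nucleus, the central clock above the optic chiasm, moved both ways. Of 13 tested members 3 rose, 4 fell and 6 did not pass, where 10.5% of all genes rose and 5.46% fell. Rgs16, a regulator of G protein signalling that shapes rhythm in this nucleus, had 8.52, 8.57 and 8.77 log2 units at ZT13, against 9.24, 9.35 and 9.33 at ZT7 (difference -0.68 ± 0.07, adjusted p = 3.45e-06). Prok2, a secreted peptide that carries timing signals out of the nucleus, had 6.32, 6.08 and 6.11 at ZT13, against 6.93, 6.76 and 6.75 at ZT7 (difference -0.64 ± 0.11, adjusted p = 0.000406). Neither overlapped between the times. Rasl11b fell by 0.79 and the vesicle protein gene Syt10 by 0.31.

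Rasd1, a Ras-like protein induced by dexamethasone that also takes part in the clock's response to light, had 7.85, 7.77 and 7.95 at ZT13, against 6.71, 7.08 and 6.81 at ZT7 (difference 0.99 ± 0.10, adjusted p = 1.37e-06). The receptor genes Prokr2 and Vipr2 rose by 0.42 and 0.35, and their calls were lost in 3 and 5 of the 6 omissions of 1 array. Zfhx3, the member with the highest mean not called, differed by 0.04 (adjusted p = 0.777). Vip itself, outside the rule for named genes, had 5.91, 6.32 and 5.97 at ZT13, against 6.56, 6.30 and 6.28 at ZT7, and did not pass (adjusted p = 0.214). The mean level of the 13 genes was 7.33 to 7.46 in the ZT13 arrays and 7.42 to 7.49 in the ZT7 arrays, which overlap.

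Among hypothalamic peptide genes, Avp and Oxt were lower at ZT13 and Sst was higher. Avp (probe set 10487685, chromosome 2), vasopressin, which is rhythmic in the suprachiasmatic nucleus and abundant in the paraventricular and supraoptic nuclei, had 8.78, 8.69 and 8.83 log2 units at ZT13, against 9.45, 9.43 and 9.42 at ZT7 (difference -0.67 ± 0.06, adjusted p = 8.11e-07). Oxytocin, Oxt, had 11.23, 11.03 and 11.06 at ZT13, against 11.54, 11.28 and 11.43 at ZT7 (difference -0.31 ± 0.07, adjusted p = 0.00415). Somatostatin, Sst, which restrains growth hormone, had 12.45, 12.46 and 12.47 at ZT13, against 12.22, 12.16 and 12.26 at ZT7 (difference 0.25 ± 0.04, adjusted p = 0.000799). None of the 3 overlapped between the times.

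Sim1, the factor that specifies paraventricular neurons, fell by 0.37, and thyrotropin-releasing hormone, Trh, differed by -0.25 (adjusted p = 0.0542). Of the 9 tested paraventricular and supraoptic genes 1 rose and 3 fell, where 10.5% of all genes rose and 5.46% fell. The count was 1 and 2 with the 6 arrays alone, where Oxt was not called. The median difference of the 9 genes was -0.157. Their mean level was 8.77 to 8.89 in the ZT13 arrays and 8.96 to 9.02 in the ZT7 arrays, without overlap, which again describes the genes just counted. The part of this list level in the falls of Avp, Oxt and Sim1 was not tested. The E-box printed in capitals lies 139 bases before the start of Avp (chr2:130582539-130582838, minus strand) and 135 bases before the start of Prok2 (chr6:99726343-99726642, minus strand), both of which fell.
Avp: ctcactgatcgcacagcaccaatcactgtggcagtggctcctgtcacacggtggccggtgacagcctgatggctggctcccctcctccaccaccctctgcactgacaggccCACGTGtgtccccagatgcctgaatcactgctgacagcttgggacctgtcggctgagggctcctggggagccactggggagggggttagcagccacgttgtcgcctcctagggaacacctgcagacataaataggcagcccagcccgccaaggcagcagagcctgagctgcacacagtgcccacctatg
Prok2: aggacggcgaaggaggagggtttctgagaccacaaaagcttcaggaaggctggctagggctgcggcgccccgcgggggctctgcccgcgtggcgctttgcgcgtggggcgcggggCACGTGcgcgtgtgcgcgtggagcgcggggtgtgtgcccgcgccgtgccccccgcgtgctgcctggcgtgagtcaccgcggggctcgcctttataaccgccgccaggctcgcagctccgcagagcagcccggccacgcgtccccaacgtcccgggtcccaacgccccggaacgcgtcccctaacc
The same 6 letters thus stand before genes that rose (Per1, Tef) and genes that fell (Avp, Prok2).

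Arcuate and ventromedial genes changed in both directions. Of 12 tested 2 rose and 2 fell, where 15.9% of all genes were called, and 0 were called with the 6 arrays alone. Gpr83 rose by 0.43 and Tac2, neurokinin B, by 0.47, while the oestrogen receptor Esr1 fell by 0.33 and tyrosine hydroxylase, Th, by 0.29. Single arrays ended the calls of Tac2, Esr1 and Th in 4, 3 and 3 of 6 omissions. Of 16 tested receptor and signalling genes of appetite 0 passed in either direction, with a median of 0.050, and 3 did not overlap between the times, against 26.8% of all genes. The 3 with the highest means, Ntrk2, Htr2c and Insr, differed by 0.12, 0.10 and 0.04. In the lateral hypothalamus and arousal list the peptide gene Tac1 rose by 0.44 and the factor Lhx9 fell by 0.43, of 7 tested. Neither was called with the 6 arrays alone, and Tac1 lost its call in 3 of the 6 omissions of 1 array, with differences of 0.33 to 0.63. Striatal markers rose in the same arrays, and their part in the rise of Tac1 was not tested.

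Glial and neuronal marker lists moved in part. Of 15 tested astrocyte genes 3 rose and 3 fell, where 10.5% of all genes rose and 5.46% fell. Fabp7, a brain fatty acid-binding protein of astrocytes and radial glia, had 6.02, 6.19 and 6.09 log2 units at ZT13, against 7.26, 7.23 and 6.96 at ZT7 (difference -1.05 ± 0.09, adjusted p = 4.41e-07). The water channel Aqp4 had 8.69, 8.70 and 8.56 at ZT13, against 9.21, 9.26 and 9.0 at ZT7 (difference -0.51 ± 0.07, adjusted p = 0.000108). Both were apart between the times, and Gfap fell by 0.47, while Fgfr3 rose by 0.43, Glul by 0.27 and Slc1a2 by 0.13. Leaving out 1 array ended the calls of Slc1a2, Glul and Gfap in 5, 4 and 2 of 6 cases, and Slc1a2 was also not called after a further quantile normalization or with a replicate block. Aldoc, an abundant member of the list, differed by 0.10 (adjusted p = 0.0933). The mean of the 15 genes overlapped, at 9.56 to 9.66 in the ZT13 arrays and 9.57 to 9.72 in the ZT7 arrays.

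Among 15 tested neuron markers 7 rose and 1 fell, against the same shares of 10.5% and 5.46% of all genes. The vesicular GABA transporter Slc32a1 rose by 0.61 and the GABA-making enzyme Gad1 by 0.17, while the glutamate transporter Slc17a6 fell by 0.24. The part of the striatal markers, which rose in the same arrays, in the Slc32a1 and Gad1 rises was not tested. Rises of the neurofilament genes Nefm and Nefl were 0.62 and 0.34. Single arrays ended the calls of Gad1 and Slc17a6 in 3 of 6 omissions each, and that of Slc32a1 without CON ZT13 replicate 3. None of the 15 was called with the 6 arrays alone, and the list had 5 higher and 3 lower members after a further quantile normalization. Oligodendrocyte markers had 4 higher and 1 lower of 17 tested, with Cldn11 up by 0.36, Mobp by 0.31 and Aspa down by 0.48, and Mbp differed by 0.00. Mobp was not called without CON ZT13 replicate 3 or CON ZT7 replicate 3. These too had 0 calls with the 6 arrays alone.

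Potassium channel genes and their partners contributed 14 rises and 0 falls among 58 tested, where 10.5% of all genes rose and 5.46% fell, with a median difference of 0.15. Kcnip2, a calcium sensor bound to A-type channels, had 7.61, 7.96 and 7.87 log2 units at ZT13, against 7.07, 7.28 and 6.95 at ZT7 (difference 0.72 ± 0.10, adjusted p = 0.000131). The beta subunits Kcnab2 and Kcnab3 rose by 0.60 and 0.52, the M-current subunit Kcnq5 by 0.56, and Kcnf1, Kcng1, Kcna1 and Kcnd1 by 0.41 to 0.52. The 3 with the highest means not called, Kcnd2, Kcnip4 and Kcnk1, differed by 0.12, 0.14 and 0.21. With the 6 arrays alone 3 were called higher, and leaving out 1 array at a time gave 8 to 14. Kcnf1 lost its call in 3 of the 6 omissions and Kcng1 in 4. Kcnip2 is also a striatal gene, and the part of striatal tissue was not tested.

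Heat shock genes had 4 rises and 0 falls of 19 tested, against 10.5% of all genes called higher, led by Dnajb1, a co-chaperone of HSP70, with 8.36, 8.54 and 8.60 log2 units at ZT13, against 7.54, 7.70 and 7.16 at ZT7 (difference 1.03 ± 0.11, adjusted p = 3.36e-06). Hspa1a rose by 0.47 from a ZT7 mean under the filter threshold, Ahsa1 by 0.36 and Hspa2 by 0.30, and Hspa8, Cacybp and Hsp90aa1 did not pass. Hspa1a lost its call in 4 of the 6 omissions of 1 array, and of the 4 genes Dnajb1 alone was called with the 6 arrays alone. The heat shock element (GAA, TTC and GAA with 2 bases of any kind between each) was in 0.603% of windows. It was held in at least 1 window by 4 of the 16 genes of this list with a window (Chordc1, Hspd1, Hspe1 and Hsph1), none of them called. Cold-inducible Rbm3, an RNA-binding protein that rises when body temperature falls, had 10.40, 10.44 and 10.49 at ZT13, against 10.62, 10.68 and 10.65 at ZT7 (difference -0.21 ± 0.06, adjusted p = 0.0236). Its relative Cirbp differed by -0.19 (adjusted p = 0.117), and 0 of the 2 genes were called with the 6 arrays alone. Rbm3 also lost its call in 3 of the 6 omissions of 1 array. Endoplasmic reticulum chaperones had 3 rises and 1 fall of 18, ribosomal protein genes 3 and 6 of 53, and respiratory chain genes 7 and 3 of 74, where 15.9% of all genes were called in either direction. Fatty acid oxidation genes had 0 calls of 16.

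**Figure D5:**
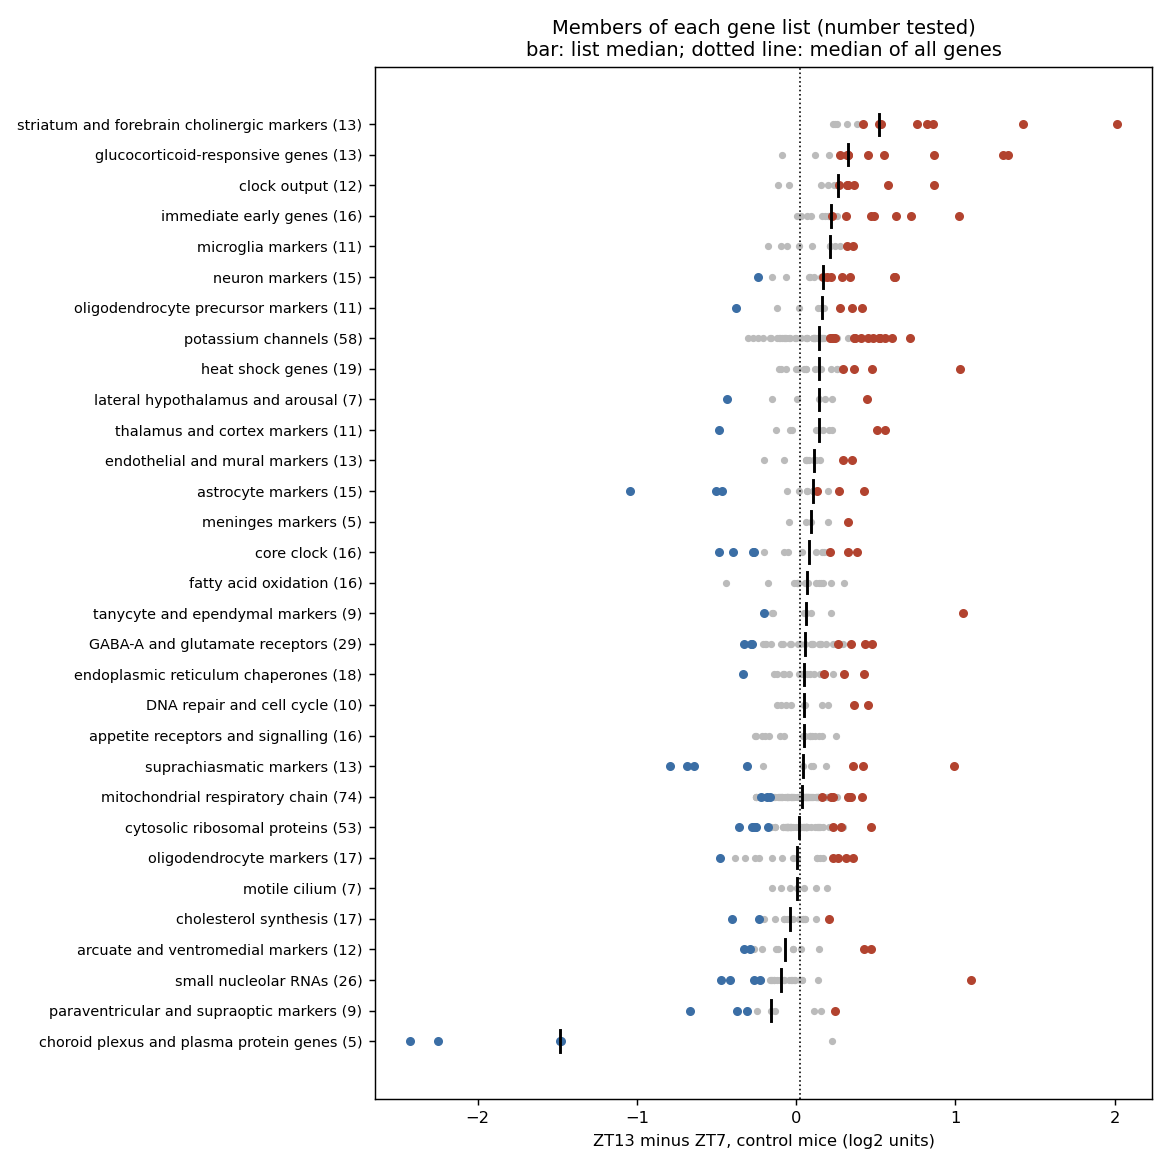
Difference between ZT13 and ZT7 in control mice (log2 units, x axis) for the tested members of each gene list with at least 5 of them (y axis, number tested in brackets). Red points are genes called higher at ZT13, blue points genes called lower and grey points genes that did not pass, the bar is the list's median and the dotted line the median of all genes, 0.027. Striatal, glucocorticoid-responsive and clock output genes lie to the right, and plasma protein genes to the left at -1.48.

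A microRNA was among the 20 largest falls. Mir99a (chromosome 16), measured by the probe set assigned to its gene, had 5.66, 5.53 and 5.58 log2 units at ZT13, against 6.77, 6.61 and 6.44 at ZT7, without overlap (difference -1.02 ± 0.10, adjusted p = 8.90e-07). The ZT13 mean lay under the filter threshold. In CON the mean was 6.53 at ZT1, 6.61 at ZT7, 5.59 at ZT13 and 6.47 in the single ZT19 array, so that ZT13 was the low time. The main mature product (RefSeq, GRCm38.p6, chr16:77598940-77598961, plus strand) is printed with its seed, bases 2 to 8, in capitals. Gene arrays of this kind do not separate the mature form from the precursor.
mmu-miR-99a-5p: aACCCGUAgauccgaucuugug
The other falls among the 20 were those of Arhgef33, Zfp867, Vamp7, C1ql3, 4632427E13Rik, Elovl7, DQ267102, Slf1 and Zfp938, by 0.67 to 0.80, together with genes described above. The ZT13 means of Arhgef33 and Zfp867 lay under the filter threshold, so their falls compare a measured ZT7 level with one near background. Of the 20, 17 were called with the 6 arrays alone, 19 without any 1 of the 6 arrays (Slf1 was the exception), and 1, Ttr, with all 24 arrays.

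Across the 6 arrays the called genes closest to Per2 in profile were B3gat1 (Pearson r = 0.989), Syt3 (0.988), Lrp11 (0.983), Kcnf1 (0.981) and Sh3bgrl3 (0.980). These are descriptions over 6 arrays that share the gap between the times, and the differences of these genes were 0.22 to 0.52 log2 units. B3gat1 lost its call in 4 of the 6 omissions of 1 array. Against ZT1, a comparison that shares the ZT13 arrays, 2972 genes (24.8%) differed, 1530 higher at ZT13 (12.8%) and 1442 lower. Of the 13 glucocorticoid-responsive genes 8 were higher at ZT13 and 0 lower in that comparison, and of the 12 clock output genes 7 and 0. Some other lists with mainly rises against ZT7 also had falls against ZT1. Rises still outnumbered falls in some of them. Counts higher and lower were 6 and 4 of 13 striatal, 4 and 3 of 16 immediate early and 9 and 4 of 58 potassium channel genes. Falls outnumbered rises in neuron markers, with 2 and 6 of 15, and in heat shock genes, with 0 and 8 of 19. Per2 in CON averaged 6.98 at ZT1, 7.59 at ZT7, 7.97 at ZT13 and 7.12 in the single ZT19 array. Nr1d1 averaged 10.02, 10.78, 10.51 and 9.96 at the same times. Sgk1 averaged 6.93, 6.82, 8.14 and 6.73, so that ZT13 stood apart from all other control times. Meis2 averaged 8.55, 6.61, 8.63 and 6.58, alternating from time to time.

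The change between the times was then compared with that in TSR mice, which the TSR arrays of ZT13 (2 of typical spread) and ZT7 (3) allow. In TSR, 417 genes (3.48%) differed between ZT13 and ZT7, 295 higher (2.46%) and 122 lower (1.02%). The difference itself, TSR minus CON, passed for 1716 genes (14.3%), 929 more positive in TSR (7.76%) and 787 more negative (6.58%). It was 888 genes without TSR ZT13 replicate 3 and 5 genes with all 24 arrays. Of the 1904 genes called in CON, 134 were called in TSR too, which is 7.04% of the CON calls and 32.1% of the TSR calls, and 30 of the 134 had the same direction.

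Glucocorticoid-responsive genes rose in both conditions in part. Sgk1 rose by 0.75 ± 0.11 in TSR (adjusted p = 0.000622), against 1.33 ± 0.10 in CON, and the difference was -0.58 ± 0.14 (adjusted p = 0.0110). Zbtb16 rose by 0.60 in TSR, against 1.3 in CON (difference -0.70 ± 0.12, adjusted p = 0.00110). Fkbp5 rose by 0.55 in each, and the difference was 0.00 (adjusted p = 0.998). Avp fell by 0.65 in TSR, against 0.67 in CON, with a difference of 0.01 ± 0.09 (adjusted p = 0.943), and Rasd1 rose by 0.74 in TSR, against 0.99 in CON (difference -0.25, adjusted p = 0.273).

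Other changes seen in CON did not pass in TSR. Egr1 differed by -0.20 in TSR, against 1.02 in CON (difference -1.22 ± 0.12, adjusted p = 3.27e-06). Nr4a1 differed by 0.01 in TSR, against 0.72 in CON (difference -0.72, adjusted p = 0.000651). Usp2 differed by -0.02 in TSR, against 0.58 in CON (difference -0.60, adjusted p = 0.00298), and Rorb by 0.18 in TSR, against -0.48 in CON (difference 0.67, adjusted p = 0.00171). For Per2 the values were 0.12 in TSR and 0.38 in CON, and the difference did not pass (-0.26, adjusted p = 0.168). Of the 13 striatal markers 0 rose and 4 fell in TSR, where 2.46% of all genes rose and 1.02% fell. A more negative change than in CON was called for 10 of them, against 6.58% of all genes. The TSR levels of these markers are given above.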

How the data were processed

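Trizol RNA of the mediobasal hypothalamus was biotin-labelled (GeneChip WT Terminal Labeling Kit) and hybridised to gene arrays, as the labels state. Per the submitters' processing notes, Affymetrix Expression Console was used, with no version or method stated there. The deposited values are log2 signals of 35556 probe sets, normalized by the authors. Depth has no meaning for arrays, and their number limits the precision.

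Of 853344 cells, 2020 (0.237%) had a misplaced decimal point and were restored by a factor of 10 to the place nearest the other arrays, 156 of them in named probe sets of the 6 arrays compared; 56 with lost digits were set to missing. Probe sets with 1 symbol (21797) were kept, 1613 with several and 12146 without one were left out, and 21706 matched a GRCm38.p6 gene table. The probe set with the highest mean stood for its gene, and genes under the 40th percentile of means (5.75) were left out.

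Group means of 20 arrays were fitted in limma 3.58.1 (R 4.3.3) with a trend in empirical Bayes. The 4 arrays with an interquartile range under 2.5 log2 units were left out, none of them among the 6 compared, so 2 TSR ZT13 arrays and 1 CON ZT19 array remained. Differences are ZT13 minus ZT7, tests were 2-sided, and p-values were adjusted by Benjamini-Hochberg over all 11968 genes at 0.05. The steps were tested on simulated data.

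The members and the 34 gene lists were chosen with earlier results of these data known. Named genes are the 20 largest called rises and falls without overlap, all tested clock genes, up to 8 called members and 3 of the highest mean of each other list, the 5 most like the leading clock gene, and the 8 smallest p-values in each direction for the difference between conditions; the text names most of these. Replicate numbers correlated at 0.071, 0.459 and -0.381 in their deviations from the group means and were not taken as pairs.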

Additional observations from a re-analysis of the deposited data

Results flagged for a closer look

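For 16 genes, the 8 smallest p-values in each direction, the change between ZT13 and ZT7 differed between TSR and CON, tested as the difference of the 2 changes (limma, adjusted p from 1.54e-07 to 3.35e-05 for the genes more positive in TSR and from 7.58e-08 to 2.86e-06 for those more negative). TSR ZT13 rests on 2 arrays of typical spread.

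More positive in TSR was Slc17a7, a glutamate transporter of cortex and thalamus, at 2.06 in TSR, against -0.02 in CON (difference 2.09). The ubiquitin ligase gene Wsb1 rose by 0.37 in TSR, against a fall in CON (-0.60), a difference of 0.97. The non-coding genes DQ267102 and Rian and the gene Gm7265 also rose in TSR and fell in CON, with differences of 1.24, 0.93 and 1.20. Mir99a, Alb and Ttr fell in CON and did not pass in TSR, with differences of 1.33, 1.71 and 1.64. The CON ZT13 means of Mir99a and Ttr lay under the filter threshold, so their differences rest in part on levels near background.

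More negative in TSR were Meis2 (-1.94), Scn4b (-2.37), Ddn (-1.89) and Ptk2b (-1.26), which rose in CON and did not pass in TSR. The CON ZT7 mean of Scn4b lay under the filter threshold, so its difference rests in part on a level near background. Gm10874 (-1.50), A530032D15Rik (-1.46), Wfs1 (-0.97) and Lhx6 (-1.08) rose in CON and fell in TSR. Striatal marker levels moved the same way in these arrays, and their part in the differences was not tested.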

How the results depend on the processing

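The 1904 genes called between ZT13 and ZT7 in CON became 758 at an adjusted p under 0.01, 200 with at least 0.5 log2 units, 11 with all 24 arrays (288 at an unadjusted p under 0.05), 933 with control arrays only, 298 with the 6 arrays alone (2467 at an unadjusted p under 0.05), 3461 with array weights and 3219 with the array's interquartile range as a covariate, an alternative chosen after seeing the data, under which 47.3% were higher. Omitting 1 array gave 1127 to 1858. For the difference between conditions, 1716 genes became 631, 858, 5 and 3076 at the stricter p, with 0.5 log2 units, with all 24 arrays and with the covariate, and 888 to 2412 with 1 array omitted. The median over all genes was 0.027, 0.0025 after quantile normalization and -0.0031 without the filter. A replicate block gave 1835 and 1749 genes, and the replicate numbers did not pair the arrays. Of 172 named called genes 0 changed direction under any setting; 165 stayed called with the block, 161 with decimals as deposited, 122 with control arrays only, 74 with the 6 arrays alone and 10 with all 24. The cause of these changes was not tested.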
